A study of Homo sapiens with 6 samples.

Results

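Semaphorins, plexins and neuropilins were followed in HCT116 cells, a human colorectal carcinoma line with wild-type p53, after exposure to the platinum drug oxaliplatin. The members were taken by gene symbol from the table of counts: every semaphorin of classes 3 to 7, every plexin of classes A to D and both neuropilins. This gave 31 genes of the 27942 in the table, of which 20 encode ligands, 9 plexins and 2 neuropilins. Poly(A) RNA was sequenced from 3 libraries of cells treated for 24 h with 0.5 µM oxaliplatin (OXA) and 3 libraries of untreated cells (NT). Libraries held between 32979521 and 40967880 counts, and the family contributed between 437 and 785 counts-per-million (CPM). The sources do not say whether same-group libraries came from separately grown cultures, so the p-values measure the spread between these libraries, which may be partly technical.

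Semaphorins are secreted or membrane-bound guidance proteins that share a sema domain, and plexins are their main receptors. Most class 3 semaphorins are secreted and reach class A or D plexins through a neuropilin co-receptor, with SEMA3E binding PLXND1 directly as the known exception. Class 4 semaphorins act mainly through class B plexins, class 6 through class A plexins, and the lipid-anchored SEMA7A through PLXNC1 and integrins. The cytoplasmic part of a plexin acts on small GTPases and thereby on the cytoskeleton and on adhesion. In epithelia and carcinomas the family is known for effects on cell spreading, migration and vessel growth.

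The promoters below belong to members that differed between NT and OXA when same-numbered libraries were paired, and are shown so that their composition can be compared. They are the 250 bases upstream of the start in RefSeq on GRCh38.p14, written 5′ to 3′ on the strand of the gene. Capitals mark 3 kinds of motif on either strand. The GC box, a site of Sp family factors, was searched as GGGCGG. The CCAAT box was searched as the letters of its name. The site of TEAD factors, through which YAP and TAZ act, was searched as CATTCC, and motifs may overlap. The windows are chr7:80919052-80919301 (minus strand) for SEMA3C, chr7:83649140-83649389 (minus) for SEMA3E, chr15:74433959-74434208 (minus) for SEMA7A, chrX:153763999-153764248 (plus) for PLXNB3 and chr12:94148327-94148576 (plus) for PLXNC1. The first 4 genes were higher in OXA, and PLXNC1 was lower.
SEMA3C: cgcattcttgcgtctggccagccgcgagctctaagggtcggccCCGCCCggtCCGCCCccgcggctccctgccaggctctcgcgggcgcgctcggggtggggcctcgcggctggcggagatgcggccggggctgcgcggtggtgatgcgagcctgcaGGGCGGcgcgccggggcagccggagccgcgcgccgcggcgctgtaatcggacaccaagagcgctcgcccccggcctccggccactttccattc
SEMA3E: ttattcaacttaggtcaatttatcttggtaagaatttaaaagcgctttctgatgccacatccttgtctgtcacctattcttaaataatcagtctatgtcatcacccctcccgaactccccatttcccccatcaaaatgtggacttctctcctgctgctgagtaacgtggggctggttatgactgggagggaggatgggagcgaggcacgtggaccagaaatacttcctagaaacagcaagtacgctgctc
SEMA7A: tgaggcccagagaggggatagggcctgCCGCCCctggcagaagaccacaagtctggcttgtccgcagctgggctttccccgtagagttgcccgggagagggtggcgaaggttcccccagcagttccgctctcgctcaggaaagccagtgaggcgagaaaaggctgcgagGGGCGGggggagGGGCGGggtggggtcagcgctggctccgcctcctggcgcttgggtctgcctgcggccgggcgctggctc
PLXNB3: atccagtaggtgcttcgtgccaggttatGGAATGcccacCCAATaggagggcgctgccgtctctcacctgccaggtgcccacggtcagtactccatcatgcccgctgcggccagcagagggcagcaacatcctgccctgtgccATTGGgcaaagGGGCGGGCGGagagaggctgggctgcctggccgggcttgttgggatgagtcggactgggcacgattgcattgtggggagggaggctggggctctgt
PLXNC1: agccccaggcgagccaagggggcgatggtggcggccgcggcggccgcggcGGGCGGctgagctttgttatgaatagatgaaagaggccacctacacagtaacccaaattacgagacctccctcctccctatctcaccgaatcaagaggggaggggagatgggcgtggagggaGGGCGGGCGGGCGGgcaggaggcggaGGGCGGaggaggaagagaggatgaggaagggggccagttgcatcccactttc

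The SEMA3C window was the richest in G and C of the 5 (77.6%) and held 3 GC boxes. That of SEMA3E, the nearest other member on the chromosome at 2441 kb, had 46.4% G and C and held none of the motifs searched. The SEMA7A window held 3 GC boxes and that of PLXNC1 held 5, so members that were higher and lower in OXA both carried them. PLXNB3 had 2 overlapping GC boxes, 2 CCAAT boxes and 1 TEAD site. RefSeq windows were matched for 27 of the 31 members, and not for SEMA3A, SEMA6A, SEMA6B and NRP1. For each member the window nearest the canonical start was taken, which lay 5977 bases from it for PLXNB2 and 2457 for SEMA4D. SEMA4D, called lower under the block, is not among the windows shown. Over all genes the first listed window of each was taken, so the shares below rest on unlike choices of window. A GC box lay in 22 of the 27 (81.5%), against 42.3% of all 27305 promoter windows. A CCAAT box lay in 6 (22.2% against 33.0%) and a TEAD site in 3 (11.1% against 11.9%). The TATA box TATAAA (11.1% of all windows), the AP-1 site TGANTCA (6.6%) and the p53 half-site (5.53%) were found in 0 of the 27. These matches describe letters in the windows, not bound sites.

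Log2 fold changes are of OXA over NT and are given with their standard error (SE). Before the comparison, the labels were checked against the libraries. CDKN1A, a p53 target that arrests the cell cycle, had 4143 to 6629 counts in NT against 37137 to 40216 in OXA (log2 fold change 2.93, edgeR adjusted p = 0.000445). All 6 epithelial markers on the list were measurable, and their summed level was 1997 to 2713 CPM in NT and 2755 to 3161 in OXA, mostly KRT8 and KRT18. Summed fibroblast markers were at 3.10 to 8.05 CPM in NT and 4.69 to 7.73 in OXA, nearly all COL1A1, with DCN at 0 in all 6 libraries. Endothelial markers summed to at most 0.781 CPM and leukocyte markers, none of which could be tested, to at most 0.229. Neural markers were between 52.6 and 56.9 CPM, nearly all MBP. The epithelial sum was thus higher in every OXA library, while single markers differed in direction. KRT8 (log2 fold change 0.47), KRT18 (0.31) and CDX2 (0.24) were higher in every OXA library than in every NT library, KRT20 (-0.48) was lower in every one, and EPCAM (-0.04) and CDH1 (-0.20) overlapped. In edgeR none of the 6 passed without the block described below, and with it KRT8 (adjusted p = 0.0271), KRT18 (adjusted p = 0.0184) and CDH1 (adjusted p = 0.0408) did. Their part in the family's differences was not tested. In bulk RNA, a lower level in each cell and fewer cells that express a gene cannot be told apart.

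Of the 31 members, 26 had enough counts to be tested. SEMA5A and SEMA6D, transmembrane ligands, and PLXNA4, a receptor for class 3 and class 6 semaphorins, had 0 counts in all 6 libraries, where a limit of 3 counts corresponds to 0.0732 to 0.0910 CPM. SEMA4A had 1, 0 and 2 counts in NT and 4, 2 and 1 in OXA, and SEMA5B had 5, 8 and 11 counts in NT and 3, 7 and 2 in OXA. Both were left out by the filter on low counts, and no direction is read from them.

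Levels were compared between genes as normalized CPM per kb of the canonical transcript, with the mean ± SD over 3 libraries. Among the ligands in NT, SEMA6B, a transmembrane semaphorin, came first at 12.1 ± 5.07, then SEMA3C at 9.26 ± 0.677, SEMA4B at 8.28 ± 2.67, SEMA4D at 7.50 ± 0.998, SEMA4G at 7.14 ± 1.21 and SEMA3A at 7.05 ± 0.754. Neighbours in this order differed by less than the larger of their SDs, so the order of neighbours is not resolved. Further apart, SEMA3A was at 7.84, 6.34 and 6.95 in the NT libraries, below SEMA3C in each on this length. SEMA6B was at 6.25, 15.4 and 14.7 in the NT libraries and at 9.35, 16.2 and 13.1 in OXA, with library 1 the lowest in each group. SEMA3C, a secreted ligand, was at 10.0, 8.71 and 9.04 in NT and at 13.1, 11.5 and 11.4 in OXA. SEMA4B was at 5.20, 9.96 and 9.67 in NT and at 8.75, 10.5 and 9.91 in OXA. The groups overlapped for SEMA6B and SEMA4B and not for SEMA3C. With the coding length in place of the transcript length, SEMA3A, whose transcript has a long noncoding part, moved from the sixth to the first place among the ligands.

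PLXNB2, a receptor of class 4 semaphorins, had the highest level per transcript length in the family. Per coding length it was at 25.9 ± 10.9 in NT against 24.7 ± 2.65 for SEMA3A, so the order of these genes is not resolved there. Per kb of transcript, PLXNB2 was at 11.96, 30.2 and 24.7 normalized CPM in NT and at 26.6, 41.3 and 29.0 in OXA. PLXND1, the receptor of SEMA3E, followed at 3.18, 6.40 and 5.64 in NT and 3.45, 4.89 and 4.17 in OXA, and PLXNA1, which pairs with neuropilins, at 1.74, 4.19 and 3.51 in NT and 2.39, 3.98 and 2.88 in OXA. The ranges of these 3 plexins overlapped between the groups. PLXNB1 (2.00 ± 0.687 in NT) and PLXNA3 (1.80 ± 0.692) came next and lay within each other's spread, while PLXNC1 (0.151 ± 0.00664), PLXNA2 (0.146 ± 0.0589) and PLXNB3 (0.0673 ± 0.0243) were an order of magnitude lower. NRP1 exceeded NRP2, at 1.09 ± 0.546 against 0.224 ± 0.109 in NT.

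**Figure D1:**
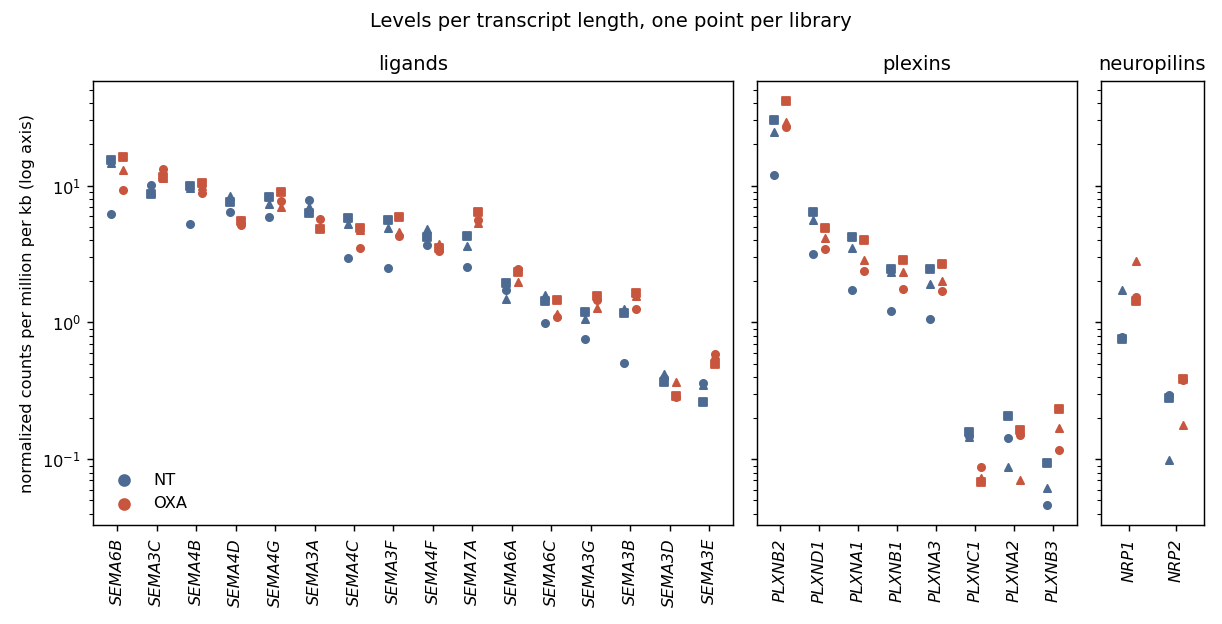
Levels of the 26 tested members by library, in normalized CPM per kb of transcript on a log axis, for NT (blue) and OXA (red), ordered within ligands, plexins and neuropilins by the mean level in NT, with circles, squares and triangles for libraries 1, 2 and 3. PLXNB2 lies above every other plexin in all 6 libraries, and the NT library 1 points of many genes lie under those of libraries 2 and 3.

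The question of the design is which transcripts differ after 24 h of oxaliplatin. A gene is said to be called where its p-value in edgeR's quasi-likelihood test, adjusted over all genes tested, was under 0.05. Normalized counts are counts scaled by edgeR's TMM factors to the mean library. With libraries treated as unpaired, none of the members was called. The counts were 0 higher in OXA, where 2.78% of the 13727 genes tested were, and 0 lower, where 2.29% were. Before adjustment, 6 of the 26 tested members had a p-value under 0.05 and were higher (10.7% of all genes), and 3 were lower (11.1%). DESeq2 called SEMA3E and SEMA7A higher (2 members, 4.61% of all genes) and SEMA3A and SEMA4D lower (2 members, 4.63%), and limma-voom called 0 in either direction. The median log2 fold change over the tested members was 0.20, against 0.02 over all genes tested, and the median size of the change, without its sign, was 0.35 against 0.19. Without NT library 1, edgeR called 3 members higher (SEMA3C, SEMA3E and SEMA7A) and 1 lower (SEMA4D). In that fit 623 of the 13888 genes tested were called higher and 571 lower.

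Libraries that carry the same number in NT and OXA shared deviations from their group means. When that number entered the edgeR model as a block, the fit called 6 members higher (12.1% of all genes were) and 3 lower (10.9%). The higher members were PLXNB3, NRP1, SEMA3E, SEMA7A, SEMA6A and SEMA3C, and the lower ones were PLXNC1, SEMA4D and SEMA3A. Without both libraries of number 1, the blocked fit called 9 higher and 7 lower, where 2939 and 2800 of all 13845 genes tested were. These calls included all 9 members called with every library kept. Without both libraries of number 2 it called 5 higher and 2 lower (956 and 673 of 13764 genes). Without number 3 it called 11 higher and 2 lower (1886 and 1193 of 13781 genes). SEMA6A and PLXNC1 were lost in both of the last fits and SEMA3C and SEMA3E without number 2, while SEMA3A, SEMA4D, SEMA7A, PLXNB3 and NRP1 were called in each of the 3 fits. These fits have 1 residual degree of freedom per gene, so they lean on the spread shared across genes.

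In 13 members OXA was higher in all 3 same-numbered pairs, which holds for 33.8% of all genes, and in 5 it was lower in all 3 (27.6%). The lowest OXA library exceeded the highest NT library for SEMA3C, SEMA3E, SEMA3G, SEMA6A, SEMA7A and PLXNB3 (6 members, against 14.5% of all genes). The highest OXA library was under the lowest NT library for SEMA3A, SEMA3D, SEMA4D and PLXNC1 (4 members, against 14.4%). The remaining 16 tested members overlapped between the groups.

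**Figure D2:**
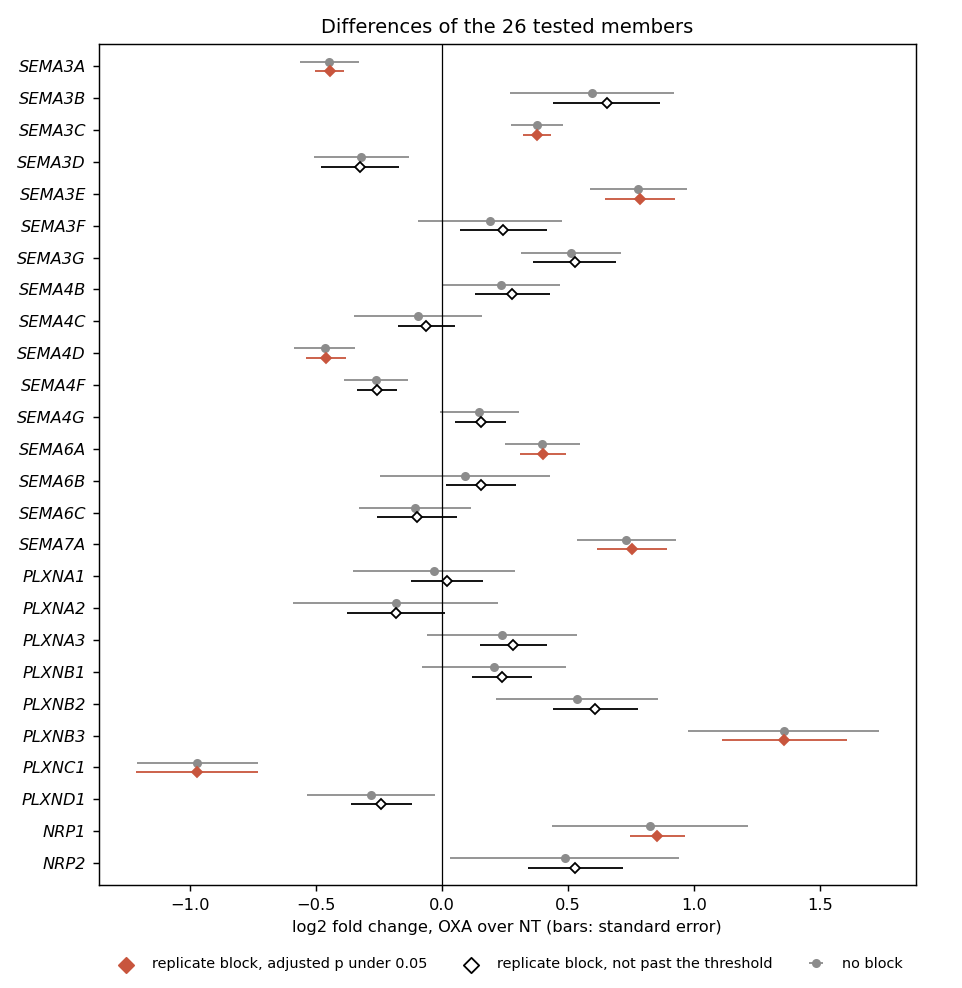
Log2 fold changes of OXA over NT for the 26 tested members, with standard errors (SE) as bars, without a block (grey circles) and blocked by replicate number (diamonds, filled red where the edgeR adjusted p-value is under 0.05). The estimates hardly move between the fits, while the standard errors of most members shrink under the block, and 9 members pass the threshold, with PLXNB3 at 1.36 and PLXNC1 at -0.97 the outermost.

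The secreted class 3 semaphorins differed in both directions. SEMA3A, which repels axons and endothelial cells through NRP1, had 2290, 1852 and 2030 normalized counts in NT against 1661, 1400 and 1464 in OXA. Each OXA library was below each NT library (log2 fold change -0.45, SE 0.12, edgeR adjusted p = 0.0719, and 0.00684 with the block). SEMA3C, a ligand of both neuropilins with reported roles in carcinoma invasion, went the other way, from 1756, 1528 and 1586 normalized counts in NT to 2306, 2008 and 2002 in OXA. The groups did not overlap (log2 fold change 0.38, SE 0.10, edgeR adjusted p = 0.0839, and 0.00980 with the block). SEMA3E, the ligand of PLXND1, was a low-abundance transcript with 94.0, 68.6 and 91.3 normalized counts in NT against 154, 131 and 151 in OXA. All OXA libraries were above all NT libraries (log2 fold change 0.78, SE 0.19, edgeR adjusted p = 0.0616, and 0.0161 with the block).

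SEMA3B, a candidate tumour suppressor in lung, had 58.3, 135 and 144 normalized counts in NT against 144, 186 and 180 in OXA. Its difference of 1.51-fold between group means did not pass in either fit (edgeR adjusted p = 0.346, and 0.0769 with the block), and without NT library 1 its log2 fold change was 0.28 in place of 0.59. SEMA3G, an endothelial ligand of NRP2, had 180 ± 40.1 normalized counts in NT against 257 ± 24.1 in OXA without overlap, and did not pass (edgeR adjusted p = 0.187, and 0.0679 with the block). SEMA3D (95.6 ± 6.43 against 76.4 ± 11.0) did not overlap and did not pass either (edgeR adjusted p = 0.384, and 0.178 with the block). SEMA3F, which signals through NRP2, had 561 ± 212 and 640 ± 114 normalized counts and overlapped. Of the 7 class 3 semaphorins, 2 were thus called higher and 1 lower under the block, and 0 in either direction without it. Under the block 12.1% of all genes were called higher and 10.9% lower.

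The genes of 4 class 3 semaphorins lie in 1 stretch of chromosome 7, all on the minus strand, at chr7:80742538-80922359 (SEMA3C), chr7:83363238-83649139 (SEMA3E), chr7:83955777-84492724 (SEMA3A) and chr7:84995553-85187056 (SEMA3D) on GRCh38. SEMA3E and SEMA3A are separated by 306.6 kb, and SEMA3A and SEMA3D by 502.8 kb, with SEMA3C 2441 kb from SEMA3E. Along the chromosome, SEMA3C and SEMA3E were higher in OXA and SEMA3A was lower, so the sign changed between SEMA3E and SEMA3A. SEMA3D, the last of the 4, had a log2 fold change of -0.32 that did not pass. The 4 transcripts are of similar G and C content (36.7% to 38.0%).

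Among class 4 semaphorins, 1 of the 5 tested was called under the block, lower in OXA (10.9% of all genes were). SEMA4D, which binds PLXNB1 and, on lymphocytes, CD72, had 1060, 1249 and 1386 normalized counts in NT against 847, 909 and 918 in OXA. Every OXA library was lower than every NT library (log2 fold change -0.47, SE 0.12, edgeR adjusted p = 0.0745, and 0.0145 with the block). SEMA4F, a transmembrane ligand, was lower in all 3 pairs at 921 ± 123 and 767 ± 42.0 normalized counts, and did not pass (edgeR adjusted p = 0.278, and 0.0637 with the block). SEMA4B (log2 fold change 0.23), SEMA4C (-0.10) and SEMA4G (0.15) had standard errors as large as or larger than these differences, and their direction depended on the libraries or scaling used. SEMA4G shares 22.9% of its exon bases with MRPL43 on the other strand, which was measured at 48.1 CPM, and the strand setting of the counting is not given in the sources used here.

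Of the transmembrane class 6 ligands, SEMA6A, which binds PLXNA2 and PLXNA4, was called under the block. It had 420, 477 and 364 normalized counts in NT against 603, 572 and 486 in OXA. The lowest OXA library lay just above the highest NT library (log2 fold change 0.40, SE 0.15, edgeR adjusted p = 0.175, and 0.0313 with the block). Of its known receptors PLXNA4 was at 0 and PLXNA2 at 60.3 ± 24.4 normalized counts in NT against 53.3 ± 20.8 in OXA. SEMA6B had 868, 2134 and 2036 normalized counts in NT against 1299, 2248 and 1815 in OXA, and SEMA6C 185 ± 43.1 and 172 ± 28.0. Both overlapped and neither passed.

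SEMA7A, the membrane-anchored ligand of PLXNC1 and of integrin β1, had 307, 524 and 437 normalized counts in NT against 684, 773 and 648 in OXA. The groups did not overlap, and the rise between means was 1.66-fold (log2 fold change 0.73, SE 0.20, edgeR adjusted p = 0.0795, and 0.0173 with the block). Its receptor PLXNC1 had 39.9, 42.6 and 39.2 normalized counts in NT against 23.8, 18.5 and 19.6 in OXA. PLXNC1 was the only tested member at least 1.5-fold lower in OXA (log2 fold change -0.97, SE 0.24, edgeR adjusted p = 0.0632, and 0.0385 with the block), and the NT libraries agreed closely. PLXNC1 shares 1.76% of its exon bases with CEP83 on the other strand, which was measured at 21.2 CPM. The strand setting of the counting is not given, PLXNC1 counts are small, and the part of CEP83 reads in them was not tested. The integrin chains ITGB1 (log2 fold change 0.07, edgeR adjusted p = 0.798) and ITGA1 (-0.28, adjusted p = 0.552) of the SEMA7A receptor did not pass, under the block either (0.393 and 0.180).

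**Figure D3:**
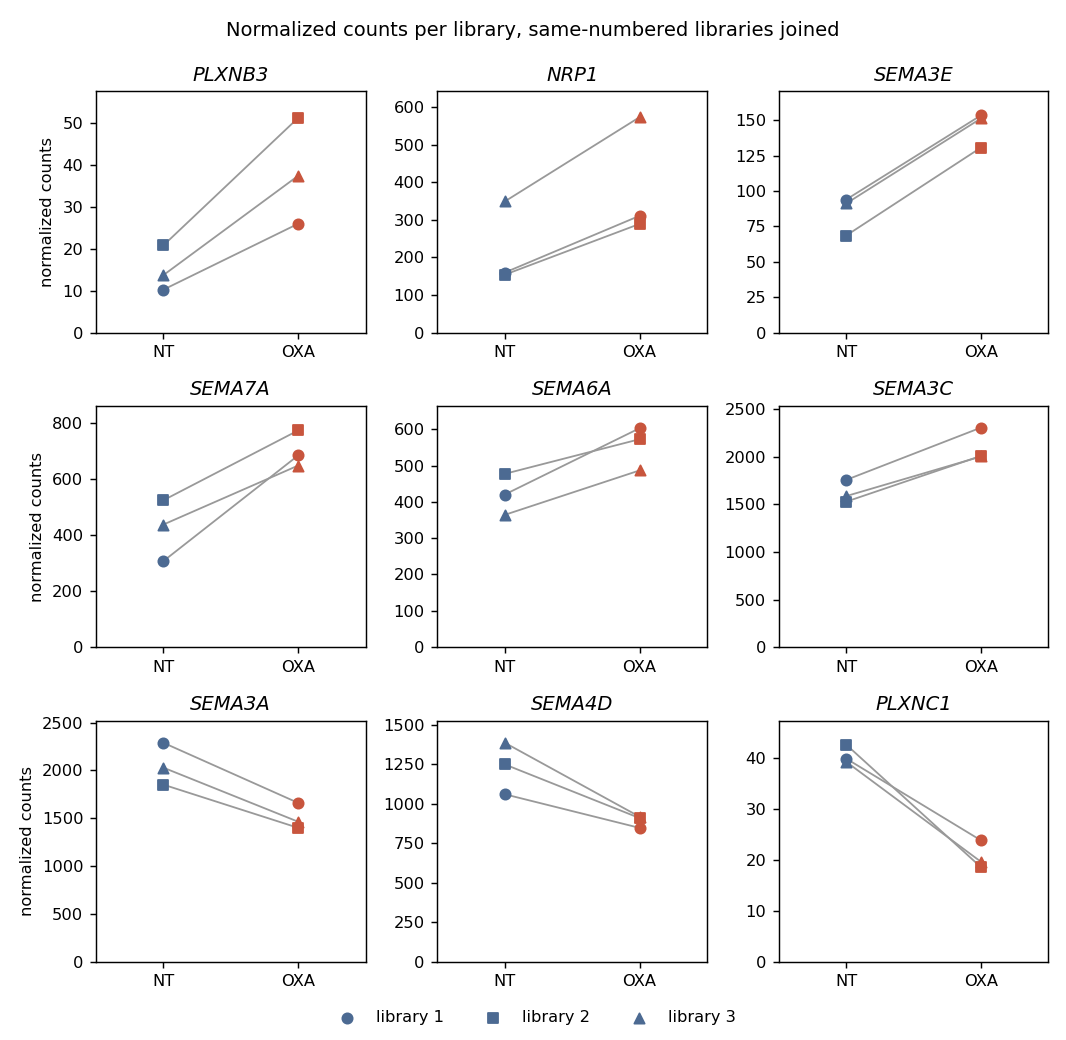
Normalized counts of the 9 members called with the replicate block, for the 3 NT (blue) and 3 OXA (red) libraries, with a line joining libraries of the same number and the vertical axis of each panel starting at 0. All 3 lines rise in the 6 upper panels and fall in the 3 lower ones, and for NRP1 library 3 lies above libraries 1 and 2 in both groups.

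Of the 3 class B plexins, 1 was called higher under the block (12.1% of all genes were). PLXNB3, a receptor of SEMA5A, was the member with the largest fold, from 10.2, 20.8 and 13.7 normalized counts in NT to 25.97, 51.2 and 37.4 in OXA. The rise was 2.56-fold between means and similar in the 3 pairs, at 1.304, 1.28 and 1.42 on the log2 scale (log2 fold change 1.35, SE 0.38, edgeR adjusted p = 0.0858, and 0.0173 with the block). These are small counts, its ligand SEMA5A was at 0, and 20.4% of its exon bases are shared with SRPK3 on the same strand, itself measured at 0.0514 CPM. PLXNB2 had 2758, 6971 and 5687 normalized counts in NT against 6137, 9522 and 6695 in OXA. The groups overlapped and neither fit passed (log2 fold change 0.54, SE 0.32, edgeR adjusted p = 0.389, and 0.0513 with the block), and without NT library 1 the log2 fold change was 0.24. PLXNB2 and SEMA3B did pass in the other 4 blocked fits, those with the authors' factors and those without both libraries of a number. PLXNB1, the receptor of SEMA4D, had 517 ± 178 and 596 ± 139 normalized counts.

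Among the other plexins PLXNA1 was nearly equal in the groups (1055 ± 425 and 1032 ± 273 normalized counts), with a standard error of 0.32 on a log2 fold change of -0.03. PLXNA3, found 678.9 kb from PLXNB3 on the X chromosome, had 706 ± 271 and 832 ± 194. PLXND1 had 1261 ± 419 in NT against 1037 ± 178 in OXA (log2 fold change -0.28, edgeR adjusted p = 0.577). For all 3 the groups overlapped and neither fit passed. Each was called in 1 of the 9 fits with libraries left out. Over those fits the log2 fold change ranged from -0.32 to 0.20 for PLXNA1, from -0.031 to 0.49 for PLXNA3 and from -0.53 to -0.11 for PLXND1.

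NRP1, the co-receptor of SEMA3A and of VEGFA, had 159, 154 and 349 normalized counts in NT against 311, 289 and 573 in OXA. OXA was higher in each pair, by 0.96, 0.91 and 0.72 on the log2 scale, although the groups overlapped because library 3 was high in both. Without the block it did not pass (log2 fold change 0.82, SE 0.39, edgeR adjusted p = 0.272), and with it the SE was 0.11 (log2 fold change 0.85, edgeR adjusted p = 0.00689). Without a block and with single libraries left out, its log2 fold change ranged from 0.41 to 1.29. NRP2, the co-receptor of SEMA3F, had 70.5, 66.5 and 23.7 normalized counts in NT against 90.9, 91.6 and 42.8 in OXA, with library 3 the lowest in both groups. It was higher in each pair and did not pass (log2 fold change 0.49, edgeR adjusted p = 0.593, and 0.0961 with the block). Without NT library 3 its log2 fold change was 0.093, and with each other library left out in turn it reached up to 0.74. The 2 co-receptors therefore had opposite deviations in libraries 3, and the raw counts of NRP1 were 2.26 and 2.31 times those of NRP2 in NT libraries 1 and 2 but 14.7 times in NT library 3. In OXA the ratios were 3.42, 3.15 and 13.4.

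Ratios of 2 members within a library do not depend on the library's scaling. The pairs below were chosen after the values had been seen, so their tests describe the separation and are not independent evidence. SEMA3A had 1.304, 1.21 and 1.28 times the counts of SEMA3C in NT and 0.720, 0.697 and 0.731 times in OXA. This ratio of raw counts fell to 0.566 of its NT value between geometric means. Raw counts also depend on transcript length, so its passing 1 is not a change in which gene was more abundant. Per kb of transcript the ratio was below 1 in every library, at 0.728 to 0.783 in NT and 0.419 to 0.439 in OXA. SEMA7A counts were 0.289, 0.419 and 0.315 of those of SEMA4D in NT and 0.807, 0.850 and 0.706 in OXA, a ratio 2.33 times higher. PLXNB2 had 4.74, 4.96 and 4.83 times the counts of PLXNA1 in NT and 7.68, 7.15 and 6.95 times in OXA, 1.497 times higher. The last ratio was nearly constant within NT although both genes were lower in NT library 1 than in libraries 2 and 3.

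PLXNB2 made up 61.4%, 65.4% and 64.3% of the summed plexin level per length in NT and 73.4%, 73.6% and 71.3% in OXA. The groups were separate for these measures and for PLXNB2 over PLXND1, each with p = 0.1 in a two-sided exact permutation test, the smallest value that 3 against 3 libraries allow (0.12 adjusted over the 6 measures). For NRP1 over NRP2 the exact permutation p was 0.6. These shares and ratios show unequal change of the members compared, not which of them changed.

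**Figure D4:**
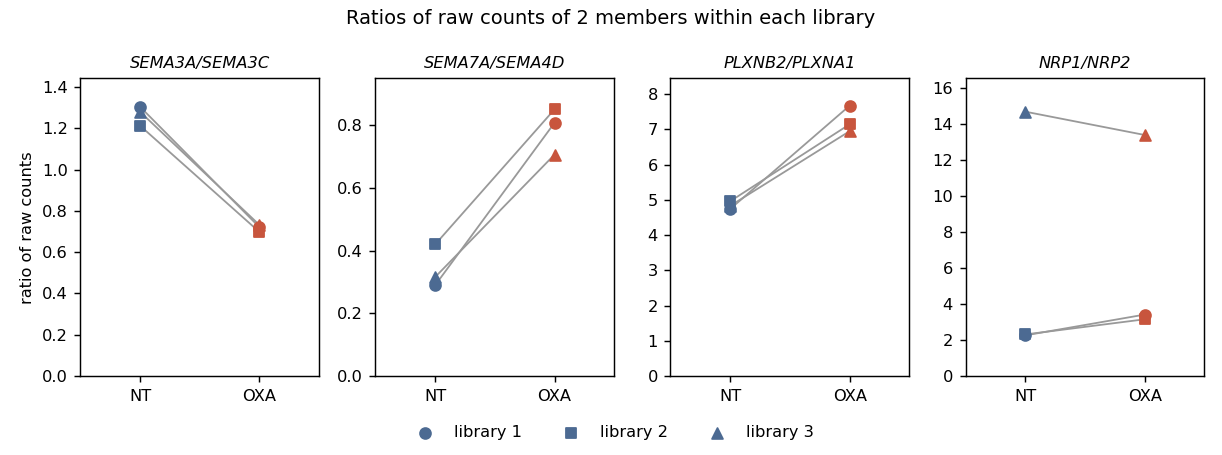
Ratios of the raw counts of 2 members within each library, for SEMA3A over SEMA3C, SEMA7A over SEMA4D, PLXNB2 over PLXNA1 and NRP1 over NRP2, in NT (blue) and OXA (red), with same-numbered libraries joined and each axis starting at 0. The first 3 ratios separate the groups, with SEMA3A over SEMA3C between 1.21 and 1.304 in NT and between 0.697 and 0.731 in OXA, while NRP1 over NRP2 separates libraries 3 from the others in both groups.

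NT library 1 stood apart from the other libraries, and members rich in G and C carried this most. Its log2 deviation from NT libraries 2 and 3 had a Pearson correlation of -0.787 with the G and C content of the transcript across the 26 tested members. The correlation was -0.634 for OXA library 1 against the other OXA libraries, and -0.776 and -0.572 across all genes with a known composition. These correlations are across genes, which share libraries and composition and are not replicates. In the 19 members with at least 50% G and C the median deviation of library 1 was -0.86 in NT and -0.28 in OXA, and in the 7 others it was -0.0014 and 0.17. Over all genes with at least 50% G and C it was -0.41 in NT and -0.13 in OXA, and over those with less it was 0.17 and 0.091. SEMA3A, SEMA3C, SEMA3E, SEMA6A, PLXNC1 and NRP1 belong to the 7 and SEMA4D, SEMA7A and PLXNB3 to the 19. The part of this deviation in the differences was not tested beyond the fits without these libraries and a fit with the authors' factors for each gene and library. With the block, the latter called 7 members higher and 2 lower, where 1316 and 1167 of all 13727 genes tested were. That fit gained SEMA3B and PLXNB2 and lost SEMA3E (log2 fold change 0.57, edgeR adjusted p = 0.134) and PLXNC1 (-0.80, edgeR adjusted p = 0.124).

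**Figure D5:**
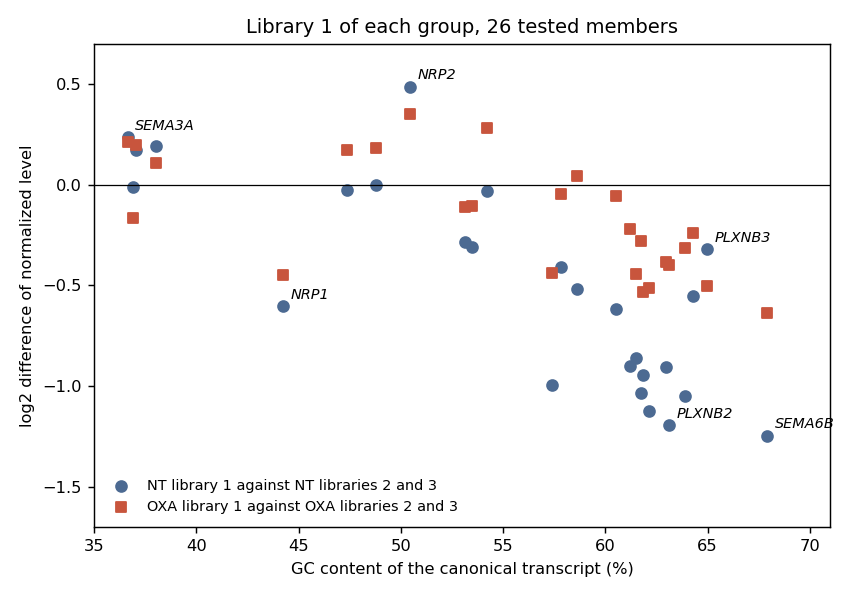
Log2 difference of the normalized level between library 1 and the mean of libraries 2 and 3 of the same group, against the G and C content of the canonical transcript in percent, for the 26 tested members in NT (blue circles) and OXA (red squares). Members over 57% G and C lie below 0 in NT, down to -1.25 for SEMA6B, and nearer to 0 in OXA, with the exception of PLXNB3 at -0.32 in NT and -0.50 in OXA.

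Another 63 genes of the pathway, listed by role, were read from the same fit, and 56 were tested. Of these, 3 were higher in OXA and 2 lower without the block, and 4 higher and 6 lower with it. The shares of all genes were 2.78% and 2.29% without the block and 12.1% and 10.9% with it, so the pathway list does not exceed this background under the block. The median log2 fold change of the list was 0.04. Among binding partners, PGF, a growth factor that binds NRP1, had 128, 176 and 188 counts in NT against 344, 396 and 380 in OXA (log2 fold change 1.23, SE 0.18, edgeR adjusted p = 0.0118). VEGFA, another ligand of NRP1, passed only with the block (log2 fold change 0.24, edgeR adjusted p = 0.0466). The VEGF receptors KDR, FLT1 and FLT4 had at most 16, 2 and 4 counts in any library and were not tested. MET, which associates with class B plexins, did not pass (log2 fold change 0.0046, edgeR adjusted p = 0.986), nor did ERBB2 (0.17, adjusted p = 0.699).

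Among GTPases and their regulators, 19 genes were tested, of which 1 was called higher and 1 lower without the block (2.78% and 2.29% of all genes were). FARP1, an exchange factor that binds class A plexins, had 2397, 2566 and 2817 counts in NT against 1869, 1798 and 2232 in OXA (log2 fold change -0.36, SE 0.08, edgeR adjusted p = 0.0483). TIAM1, an exchange factor for RAC1, passed with the block only (-0.24, edgeR adjusted p = 0.0377).

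Among kinases and cytoskeletal effectors, 1 of the 21 tested was called higher and 1 lower without the block (2.78% and 2.29% of all genes were). MICAL2, which oxidizes actin, had 1864, 1750 and 2071 counts in NT against 2470, 2354 and 2798 in OXA (log2 fold change 0.46, SE 0.08, edgeR adjusted p = 0.0232). DPYSL2, the collapsin response mediator CRMP2 that acts below SEMA3A on microtubules, had 2687, 2647 and 3429 counts in NT against 1728, 1670 and 2433 in OXA (log2 fold change -0.56, SE 0.11, edgeR adjusted p = 0.0283). With the block its relatives DPYSL3 (-0.28, edgeR adjusted p = 0.0231) and DPYSL5 (-0.46, edgeR adjusted p = 0.0250) and the cofilin kinase LIMK2 (-0.27, edgeR adjusted p = 0.0368) were also lower. Their relative DPYSL4 went the other way, higher in OXA in each pair, and did not pass (0.50, edgeR adjusted p = 0.407, and 0.0620 with the block). None of the 4 tested proteases that cut semaphorins passed in either fit, with log2 fold changes from -0.07 to 0.10.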

How the data were processed

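HCT116 poly(A) RNA libraries, 3 NT and 3 OXA, were compared, grouped by the labels. The authors trimmed and mapped 100-base paired reads to GRCh38 with STAR 2.7.5b. The submitters' notes also name Trimmomatic 0.32, RSEM 1.3.3 and DESeq2 2.13. The counting annotation and strand setting are not given in the sources used here. The deposited raw counts per gene were used unchanged. The authors' normalized signal, a count multiplied by a factor that varies by gene and library, served one alternative. All columns matched a sample.

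Genes passing filterByExpr (minimum count 10, total 15; 13727) were fitted with edgeR 4.0.16 quasi-likelihood (TMM, R 4.3.3), and p-values were Benjamini-Hochberg adjusted over all. A gene was called at an adjusted p under 0.05. Normalized counts are TMM-scaled to the mean library size. Steps were tested on simulated data. Alternatives were DESeq2 1.42.0, limma-voom (limma 3.58.1), other factors and filters, left-out libraries and the replicate block. The block was used because, over all genes tested, deviations of same-numbered libraries correlated (0.710, 0.711 and 0.410 for numbers 1, 2 and 3, against -0.601 to 0.150 for different numbers). The labels give the numbers and not what they stand for. Positions, lengths and composition came from GENCODE 44 and promoters from RefSeq. Members and lists were chosen with earlier results of these data known. Named are members called in either fit, the 3 highest levels per kind, folds of at least 1.5 and called pathway genes. A pathway gene that this rule selects is not reported here. PCR duplicates were not separable, so counting limits cover counting error only.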

Additional observations from a re-analysis of the deposited data

How the results depend on the processing

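Members called higher and lower in OXA numbered 0 and 0 without a block, and this held with DESeq2 size factors, with no filter on low counts, with limma-voom and with the authors' gene factors. DESeq2 called 2 and 2, the replicate block 6 and 3, and the block with the authors' gene factors 7 and 2. Leaving out libraries gave 0 to 11 higher and 0 to 7 lower, of which only NT library 1, taken alone, gave any (3 and 1). The fits that drop both libraries of a number were chosen after seeing the data. Over all genes, 381 higher and 315 lower became 633 and 635 with DESeq2, 1664 and 1493 with the block, 241 and 200 with the authors' factors, 1316 and 1167 with both, and 66 to 623 and 19 to 571 with 1 library left out. With the block and both libraries of number 1, 2 or 3 left out they were 2939 and 2800, 956 and 673, and 1886 and 1193. Of the pathway list, 3 higher and 2 lower became 5 and 4 with the block and the authors' factors, 0 to 11 and 0 to 10 with libraries left out, and the lower count became 6 with the block and 1 with no filter, with limma-voom or with the authors' factors. Members without overlap, 6 higher and 4 lower, became 3 higher with the authors' factors and ranged from 6 to 8 and from 4 to 7 with libraries left out. The shares over all genes are known only for the main setting (14.5% and 14.4%). With a library left out any gene separates more easily, so these counts are not read as a result about the members. The causes were not tested.

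The 9 members called with the block, and PLXNB2, SEMA3B, SEMA3D, SEMA3G, SEMA4F, PLXND1 and NRP2, kept their sign in every fit run. Signs of members that passed neither fit turned as follows on the log2 scale. With 1 library left out, SEMA3F ranged from -0.087 to 0.39, SEMA4B from -0.013 to 0.36, SEMA4C from -0.34 to 0.056, SEMA6B from -0.22 to 0.28, SEMA6C from -0.28 to 0.0073, PLXNA1 from -0.32 to 0.20, PLXNA2 from -0.48 to 0.12, PLXNA3 from -0.031 to 0.49 and PLXNB1 from -0.053 to 0.37. With the replicate block and without both libraries 1 the values were -0.0055 for SEMA3F and -0.046 for SEMA6B, without both libraries 2 0.044 for PLXNA1, and without both libraries 3 0.082 for SEMA6C and 0.17 for PLXNA1. The block alone gave 0.020 for PLXNA1 and limma-voom 0.026. The authors' gene factors gave -0.090 for SEMA4G, 0.18 for SEMA6C and 0.20 for PLXNA2, and with the block -0.093 for SEMA4G and 0.20 for SEMA6C. Levels per length were recomputed with the coding length. Among the tested members, low counts limit PLXNB3, PLXNC1, PLXNA2, NRP2, SEMA3D and SEMA3E most.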
